A study of Homo sapiens with 12 samples.

Results

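The genes described here are 32 neighbours of ERBB2 on human chromosome 17q12-q21, the chromosome region that is copied many times over in HER2-amplified tumours. They were taken as every sgRNA in the count table of a knockout screen whose target gene is one of 32 named neighbours, from LASP1 on the centromeric side to TNS4 on the telomeric side. This gave 192 of the 123411 sgRNAs and 32 of the 20915 gene and microRNA targets, with 6 sgRNAs for every gene. ERBB2 itself is not among them. The screen used the GeCKO V2 library, in which 1 lentivirus delivers both the Cas9 nuclease and a single guide RNA that directs it to a gene, in the gastric cancer cell lines N87 and OE19, both carrying HER2 amplification. Each line was infected at a multiplicity of infection of 0.3 and selected with puromycin for 7 days, at a higher puromycin dose in OE19 than in N87. The 6 groups were, in each line, untreated cells taken at the end of selection (baseline), cells grown 14 days longer with the solvent DMSO (vehicle), and cells grown for the same 14 days with lapatinib, a small-molecule inhibitor of the HER2 and EGFR kinases. The lapatinib dose was 0.5 µM in N87 and 1 µM in OE19. Every group had 2 libraries, from separate infections, and all cells carried Cas9 and an sgRNA, so no group is free of cutting. The control guides, which target no gene, make up 2000 entries of the table.

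ERBB2 encodes the HER2 receptor, the growth signal on which these lines are commonly taken to depend. Its amplicon carries the adjacent genes along, whether or not the tumour uses them, and the commonly shared core runs from PPP1R1B to GRB7. A Cas9 guide aimed at an amplified gene cuts every copy, and many simultaneous cuts are known to slow or kill cells irrespective of what the gene does. A neighbour that the cell type does not use, such as a muscle or neuronal gene, therefore serves in such screens as a readout of cutting, whereas a neighbour needed for division can be lost through either route. DNA copy number was not analysed here, so how far the amplicon reaches in either line is not known from these data, and gene loss and cutting cannot be told apart for any single gene.

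In GRCh37 coordinates with GENCODE annotation, the 32 genes span chr17:37026112-38657875, an interval of 1632 kb. The order of the set matched the annotated order of the genes. The 8 centromeric genes (LASP1, FBXO47, PLXDC1, CACNB1, STAC2, FBXL20, CDK12, NEUROD2) have midpoints between -813.4 and -102.5 kb from that of ERBB2, counted as negative toward the centromere. The 7 core genes are PPP1R1B, STARD3, TCAP, PNMT and PGAP3 before that midpoint, and MIEN1 and GRB7 after it. The other 17 genes run from IKZF3, 101.8 kb past the midpoint of ERBB2, to TNS4, 779.6 kb past it. TCAP occupies chr17:37821602-37822807 and CDK12 chr17:37617739-37723812, both on the plus strand. ERBB2 occupies chr17:37844167-37886679. The annotated spans of PGAP3 (chr17:37827375-37853050) and MIEN1 (chr17:37884749-37886785), both on the minus strand, overlap that of ERBB2 at its start and its end. The positions of the sgRNAs within their genes were not analysed here, so it is not known whether guides for PGAP3 or MIEN1 also cut ERBB2. A further 9 targets of the library, ERBB2 among them, lie inside the interval and serve only as reference points.

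The libraries held 13105805 to 33743599 counts, with a median of 57 to 238 counts per sgRNA. The shallowest was OE19 lapatinib replicate 1. Of the replicate pairs, the OE19 lapatinib libraries differed most beyond sampling noise and the OE19 baseline libraries least, with chi-square values of 17.1 and 1.87 per degree of freedom. In N87 the lapatinib libraries held 7 and 4 of the 192 sgRNAs of the neighbours at 0 counts, where the baseline libraries held none at 0.

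The neighbours were under-represented in N87 from the first time point and near their share of the library in OE19. Their sgRNAs are 0.156% of the library but took 0.111% and 0.100% of the counts in the N87 baseline libraries, and 0.154% and 0.152% in the OE19 baseline libraries. The median normalized count of the neighbours, divided by that of all sgRNAs, was 0.643 and 0.582 in the N87 baseline libraries, 0.529 and 0.460 in the vehicle libraries, and 0.292 and 0.381 in the lapatinib libraries. For OE19 the ratios were, in the same order, 0.976 and 0.974, then 0.898 and 0.996, then 1.05 and 1.12. All 6 N87 libraries lay below all 6 OE19 libraries. Counts of the plasmid pool before infection were not analysed here, so these ratios describe the infected cells and not a loss since infection.

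The first comparison set OE19 against N87 at baseline. It asks whether guides to the amplicon already stood at different levels in the 2 lines at the end of selection. By then the infected cells had been kept for the 7 days of puromycin. Of the 32 neighbours, 26 were higher in OE19 and 0 were lower by the gene test, against 1.76% and 0.00479% of all 20895 genes tested. The gene test combines the edgeR quasi-likelihood p-values of a gene's sgRNAs by robust rank aggregation, and a gene passes at a Benjamini-Hochberg adjusted p under 0.05 over all genes. Of the single sgRNAs, 87 of 192 were higher in OE19 (45.3%, against 0.922% of all sgRNAs) and 0 were lower (0.0431%). With DESeq2 in place of edgeR 43 were higher (0.24% of all sgRNAs), and without OE19 baseline replicate 2, which gave the lowest number of the left-out libraries, 58 were (0.34%). The median over the 192 sgRNAs was a log2 fold change of 0.59, where the median over the sgRNAs of all genes was -0.0046 and that of the control guides -0.03. The mean normalized counts of the 2 lines did not overlap between libraries for 31 of 32 genes, each higher in OE19, a pattern seen in 21.3% of all genes. The exception was MSL1, with 203 and 188 in N87 and 204 and 203 in OE19. An exact permutation test of 2 libraries against 2 cannot give a p under 0.333, so the calls rest on the model fitted across all sgRNAs. The gene calls also rest on the agreement among the sgRNAs of a gene.

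By their median, the core genes differed most. Single genes overlapped between positions: the centromeric CDK12 lay above every core gene except TCAP, and the centromeric NEUROD2 above PGAP3, MIEN1 and GRB7. TCAP, the telethonin of the muscle sarcomere, had mean normalized counts per sgRNA of 85.8 and 58.3 in the N87 baseline libraries and 186 and 202 in the OE19 baseline libraries. Its log2 fold change, the median over its sgRNAs, was 1.51 ± 0.28 (SD over 6 sgRNAs), or 2.85-fold, the highest value of all 20895 genes (adjusted p = 6.03e-11 by rank aggregation of the edgeR test). All 6 TCAP guides were higher in OE19, and the deepest of them, HGLibB_49634, read 202 and 110 normalized counts in N87 against 414 and 467 in OE19. STARD3, which moves cholesterol between endosomes and other membranes, had 74.1 and 62.9 against 160 and 159, with a log2 fold change of 1.33 ± 0.46 (adjusted p = 6.03e-11 by rank aggregation) and 6 of 6 guides higher. PNMT, the adrenal enzyme that makes adrenaline, had 173 and 155 against 281 and 280. For each of these genes the lowest OE19 library stood above the highest N87 library. PPP1R1B, an inhibitor of protein phosphatase 1 best known from dopamine-responsive neurons, had 105 and 89.2 against 172 and 163. Its log2 fold change of 1.16 hid a split between guides: HGLibA_46355 stayed at -0.09, while the other guides for PPP1R1B lay between 1.02 and 1.84. The remaining core genes had smaller differences, at 0.95 for PGAP3, which remodels the lipid of GPI anchors, 0.95 for MIEN1, a small membrane-attached protein linked to cell migration, and 0.84 for GRB7, an adaptor that binds activated HER2. All 7 core genes passed the test, and the median of their gene values was 1.16. GeCKO V2 is split into sub-libraries A and B with different guides for the same genes, and the core guides had a median of 1.03 in sub-library A and 1.19 in sub-library B.

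**Figure D1:**
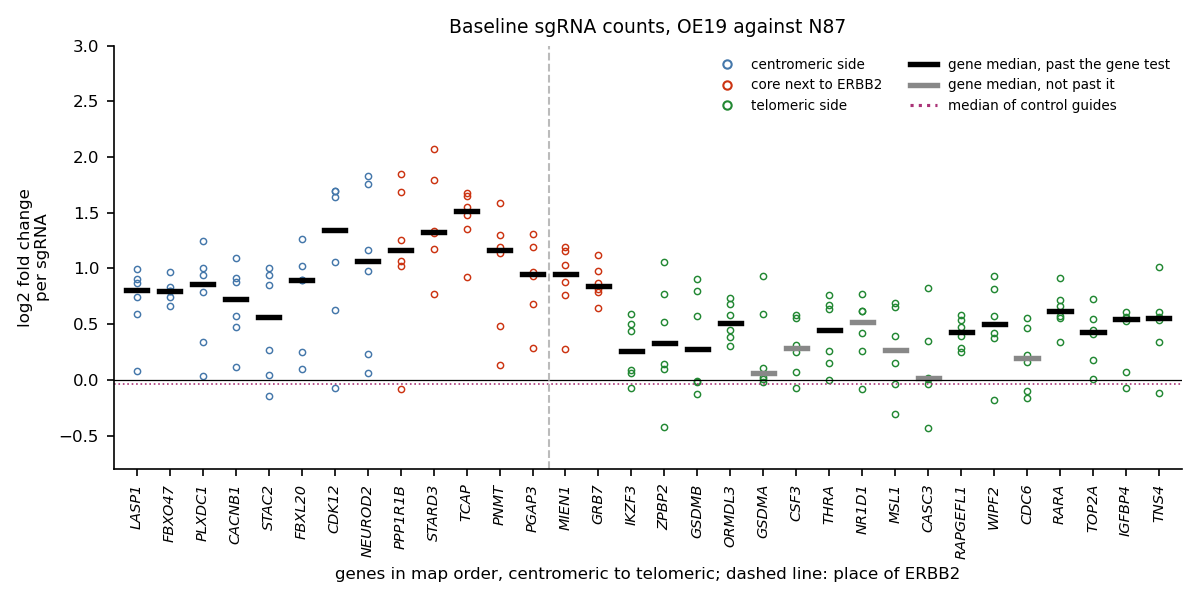
Log2 fold change of each sgRNA between the OE19 and N87 baseline libraries (y axis) for the 32 genes in map order (x axis, centromeric to telomeric). Open circles are sgRNAs, coloured by position, bars are gene medians (black where the gene passed the test, grey where it did not), and the dashed vertical line marks ERBB2. Medians are highest at TCAP (1.51), CDK12 (1.35) and STARD3 (1.33) and drop from GRB7 (0.84) to IKZF3 (0.26).

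On the centromeric side all 8 genes were higher in OE19, with a median of 0.84. CDK12, a kinase that drives RNA polymerase II elongation, had mean normalized counts of 108 and 94.6 in N87 and 190 and 193 in OE19, a log2 fold change of 1.35 ± 0.72 (adjusted p = 2.59e-08 by rank aggregation). NEUROD2, a transcription factor of neurons, followed at 1.07 with 95.0 and 85.8 against 150 and 156. The libraries of the lines did not overlap for either gene. FBXL20, the substrate adaptor of a ubiquitin ligase, was at 0.90. PLXDC1, an endothelial surface protein, was at 0.86, LASP1, an actin-binding scaffold, at 0.81, and FBXO47, an F-box protein of germ cells, at 0.80. The 6 FBXO47 guides were the most alike, from 0.66 to 0.97. CACNB1, a calcium channel subunit of muscle, was at 0.72 and the channel adaptor STAC2 at 0.56. STAC2 lost its call without OE19 baseline replicate 1 (adjusted p = 0.0558 by rank aggregation) and without OE19 baseline replicate 2 (adjusted p = 0.0666).

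Past GRB7 the differences were smaller. Of the 17 telomeric genes, 11 were higher in OE19, with a median of 0.43. The largest difference on this side was that of RARA, the retinoic acid receptor, with 164 and 151 mean normalized counts in N87 against 249 and 248 in OE19, a log2 fold change of 0.62 ± 0.19 (adjusted p = 5.11e-06 by rank aggregation). TNS4, a focal adhesion protein, was at 0.55, IGFBP4, which binds insulin-like growth factors, at 0.54, and ORMDL3, a regulator of sphingolipid synthesis, at 0.51. The actin regulator WIPF2 was at 0.50, the thyroid hormone receptor THRA at 0.45, the exchange factor relative RAPGEFL1 at 0.43 and the DNA topoisomerase TOP2A at 0.43. ZPBP2, a sperm protein, was at 0.33, the gasdermin GSDMB at 0.28 and the lymphocyte transcription factor IKZF3 at 0.26. The 6 genes that did not pass were the clock regulator NR1D1 at 0.52 (adjusted p = 0.0579 by rank aggregation), the cytokine CSF3 at 0.28, the histone acetylation cofactor MSL1 at 0.27, the replication licensing factor CDC6 at 0.19, the skin gasdermin GSDMA at 0.07 and the exon junction protein CASC3 at 0.02. All 6 thus also lay on the telomeric side.

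Single libraries decided several of the telomeric calls. Without N87 baseline replicate 1 the calls of ZPBP2 (adjusted p = 0.0720 by rank aggregation) and IGFBP4 (0.357) were lost. Without N87 baseline replicate 2 those of IKZF3 (0.927), RAPGEFL1 (0.230) and TOP2A (1) were lost, with TOP2A down to a log2 fold change of 0.16. Without OE19 baseline replicate 1 those of IKZF3 (0.0642), GSDMB (0.0655), WIPF2 (0.0774) and IGFBP4 (0.0956) were lost. Without OE19 baseline replicate 2 those of IKZF3 (0.170), ZPBP2 (0.0578), GSDMB (0.0559), TOP2A (0.170) and TNS4 (0.103) were lost. The core genes and the centromeric genes other than STAC2 kept their calls without any 1 of the 4 libraries.

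By role, of the 11 genes whose expression is normally restricted to neurons, muscle, adrenal, germ cells, lymphocytes, skin or vessels, 9 were higher in OE19, with a median of 0.72. Of the 5 genes of replication, transcription and RNA handling that most dividing cells use (CDK12, CDC6, TOP2A, CASC3 and MSL1), 2 were higher, with a median of 0.27. Role and position go together in these lists. Only IKZF3, ZPBP2, GSDMA and CSF3 of the tissue-restricted genes are telomeric, whereas all the genes of dividing cells except CDK12 are. The medians therefore cannot tell role and position apart. Inside the interval, 5 of the 9 other targets were higher, with ERBB2 at 0.89, the Mediator subunit MED1 at 1.18 and the ribosomal protein RPL19 at 1.03. Within 1 Mb beyond the ends of the interval, 15 of 20 targets on the centromeric side (median 0.74) and 39 of 57 on the telomeric side (median 0.44) were higher. On the rest of chromosome 17 it was 43 of 1043 targets (median 0.03), and on other chromosomes 232 of 18803 (median -0.01). Counted in windows of 1 Mb from the midpoint of ERBB2, the gene medians were 0.23 from -2 to -1 Mb, 0.98 from -1 to 0 Mb, 0.45 from 0 to 1 Mb, 0.44 from 1 to 2 Mb and 0.01 from 2 to 3 Mb. The raised region was thus lopsided about ERBB2, with higher values over the nearest 1 Mb on the centromeric side and lower values that reached out to 2 Mb on the telomeric side. Among the 32 genes the difference fell off weakly with distance from ERBB2 (Pearson r = -0.38 and Spearman rho = -0.36 across 32 genes, which share libraries and are not independent replicates).

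**Figure D2:**
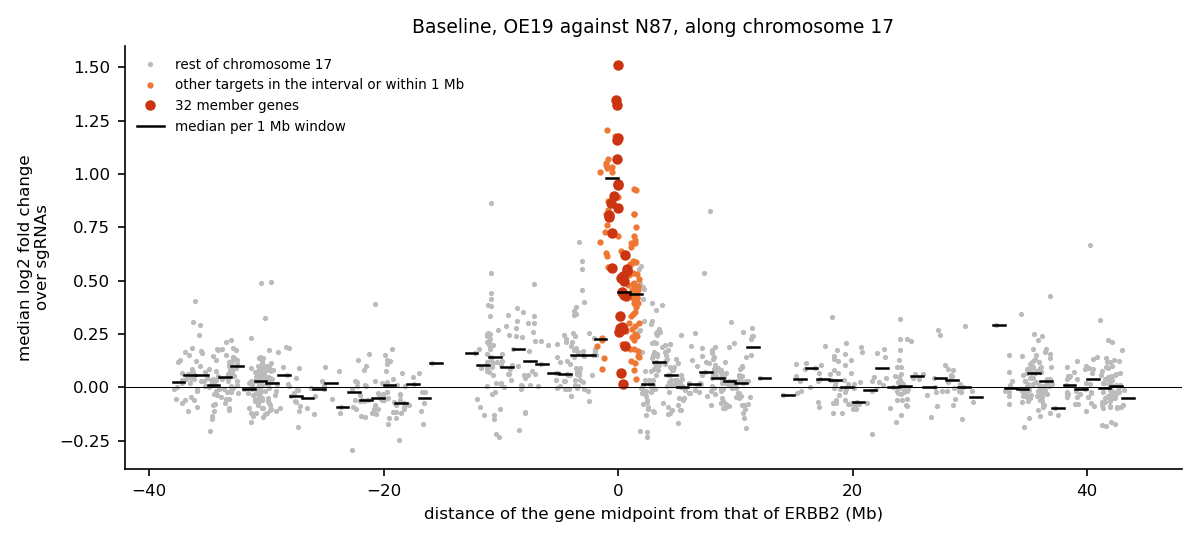
Median log2 fold change over sgRNAs between the OE19 and N87 baseline libraries (y axis) for targets along chromosome 17, by distance of the gene midpoint from that of ERBB2 in Mb (x axis). Red points are the 32 neighbours, orange points are other targets inside the interval or within 1 Mb of it, grey points are the rest of the chromosome, and black lines are medians of 1 Mb windows, which peak at 0.98 just before ERBB2 and are back at 0.01 from 2 to 3 Mb past it.

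The second comparison, vehicle against baseline in each line, shows what happened to these guides over 14 days of growth without drug. In N87 all 32 gene values lay below 0, from -1.01 for TCAP to -0.01 for CASC3, and 3 genes passed the gene test as lower (2.28% of all genes did). None was higher (0.0574% of all genes). Of 191 sgRNAs tested, 152 lay below 0 and the median was -0.26, where the control guides had a median of 0.09. No single sgRNA of the neighbours passed (0.0399% of all sgRNAs were lower). Without N87 vehicle replicate 1, 36 were lower (4.68% of all sgRNAs), without N87 vehicle replicate 2, 7 were (0.731%) and 2 were higher (0.425%), and without N87 baseline replicate 2, 3 were (0.306%). The mean normalized counts were lower without overlap between libraries for 20 of 32 genes, against 17.7% of all genes, and higher for 0, against 28.1%.

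All 3 genes that fell in N87 belong to the core, and TCAP and PNMT among them are genes of muscle and adrenal tissue. TCAP had mean normalized counts of 85.8 and 58.3 at baseline and 42.7 and 34.9 with vehicle, so that both vehicle libraries lay below both baseline libraries. It fell by 1.01 on the log2 scale (SD 0.34 over 6 sgRNAs, 2.02-fold), with all 6 guides below 0 and the 19th lowest value of 20894 genes (adjusted p = 0.000858 by rank aggregation of the edgeR test). PPP1R1B went from 105 and 89.2 to 59.6 and 71.3, a log2 fold change of -0.85 ± 0.52 (adjusted p = 0.0298 by rank aggregation), again with all 6 guides below 0. PNMT went from 173 and 155 to 129 and 141, a log2 fold change of -0.44 ± 0.38 (adjusted p = 0.0443 by rank aggregation). The libraries of PPP1R1B and PNMT did not overlap either.

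Other core and near-core genes had values of similar size in N87 without passing the test. NEUROD2 was at -0.85 (95.0 and 85.8 to 73.1 and 57.7, adjusted p = 0.106 by rank aggregation). GRB7 was at -0.69, with 72.0 and 57.1 normalized counts at baseline and 47.9 and 38.1 with vehicle. MIEN1 was at -0.62, PGAP3 at -0.54, STARD3 at -0.48 and CDK12 at -0.44. The median gene value was -0.62 over the core, -0.38 over the centromeric genes and -0.16 over the telomeric genes. TOP2A, at -0.54 (adjusted p = 0.0827 by rank aggregation), was the lowest telomeric gene. By role, 2 of the 11 tissue-restricted genes fell (median -0.26) and 0 of the 5 genes of dividing cells did (median -0.04). Here too, role and position could not be told apart. At the other end stood CASC3 at -0.01, with 208 and 201 normalized counts at baseline and 214 and 205 with vehicle, CDC6 at -0.03, NR1D1 at -0.03 and MSL1 at -0.04. For these genes the vehicle and baseline libraries overlapped. ERBB2 was at -0.54 and did not pass either (adjusted p = 0.590 by rank aggregation). Over the 32 genes, the value was higher the farther the gene lay from ERBB2 (Pearson r = 0.51, Spearman rho = 0.50 across 32 genes). The same measure was weaker in OE19 (Pearson r = 0.25, Spearman rho = 0.10). The genes share libraries and are not independent replicates.

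The N87 calls rested on single libraries. Without N87 baseline replicate 1 no neighbour passed, with TCAP at -0.66 (adjusted p = 0.0713 by rank aggregation), PPP1R1B at -0.30 (0.450) and PNMT at -0.19 (1). Without N87 vehicle replicate 1 the calls of TCAP (0.215), PPP1R1B (0.610) and PNMT (0.599) were lost, though TCAP kept a value of -1.16. Without N87 vehicle replicate 2 those of TCAP (0.111) and PNMT (0.11) were lost and 1 neighbour passed, and without N87 baseline replicate 2 the count was 6. The call of PNMT was also lost with scaling on the control guides (0.0541) and with the replicate number as a block (0.0550). Directions held in each case. The baseline libraries already differed for TCAP by 85.8 against 58.3.

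OE19 showed another order of genes over the same 14 days. Here 2 neighbours fell (1.47% of all genes) and 0 rose (0% of all genes), and the median over the sgRNAs of the neighbours was -0.03, where the sgRNAs of all genes had 0.01, with the control guides at 0.19. Of 191 sgRNAs tested, 4 were lower (2.09%, against 0.893% of all sgRNAs) and 0 higher (0.0114%). The number lower was 0 without either OE19 baseline library (0.475% and 0.215% of all sgRNAs without replicates 1 and 2), 17 without OE19 vehicle replicate 1 (5.15%) and 40 without OE19 vehicle replicate 2 (14.4%). The number higher was then 5 (2.4%) and 24 (12.9%) without vehicle replicates 1 and 2. Mean normalized counts were lower without overlap for 8 of 32 genes and higher for 9, where 21.4% and 32.3% of all genes were. MIEN1 had 79.8 and 78.2 normalized counts at baseline and 34.7 and 36.7 with vehicle. It fell by 1.37 on the log2 scale (SD 0.57 over 6 sgRNAs, 2.58-fold), with 6 of 6 guides below 0 and the 20th lowest value of 20894 genes (adjusted p = 0.00269 by rank aggregation of the edgeR test). CDK12 went from 190 and 193 to 130 and 149, a log2 fold change of -0.68 ± 0.78 (adjusted p = 0.0234 by rank aggregation). Neither gene's vehicle libraries overlapped its baseline libraries. By role, the order seen in N87 did not recur, since CDK12 belongs to the genes of dividing cells and no tissue-restricted gene passed.

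The guides for CDK12 were split in OE19. HGLibA_08731, HGLibA_08730 and HGLibB_08724 stood at -1.87, -1.28 and -1.12, while HGLibA_08732 and HGLibB_08723 stood at 0.01 and -0.02 and HGLibB_08725 at -0.25. HGLibB_08725 was also the 1 guide for CDK12 that did not differ between lines at baseline, at -0.07. The MIEN1 guides ran from -2.24 to -0.73.

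Next to MIEN1, the genes on either side of ERBB2 had low values in OE19 without passing. PGAP3 was at -0.96 ± 0.52, with 86.3 and 82.6 normalized counts at baseline, 37.1 and 51.3 with vehicle and 6 of 6 guides below 0 (adjusted p = 0.135 by rank aggregation). GRB7 was at -0.59 (117 and 120 to 77.4 and 81.5), also with 6 of 6 guides below 0. TOP2A was at -0.54. ERBB2, between PGAP3 and MIEN1, was at -0.97 and passed (adjusted p = 0.0140 by rank aggregation), with 105 and 103 normalized counts at baseline and 54.9 and 64.3 with vehicle. The other core genes did not share these values. PPP1R1B was at 0.21, PNMT at 0.19, TCAP at 0.08 and STARD3 at -0.05. The highest neighbours were CASC3 at 0.25 and ZPBP2 at 0.22. CDK12 lost its call without OE19 baseline replicate 1 (adjusted p = 0.0696 by rank aggregation), OE19 vehicle replicate 1 (0.0502) or OE19 vehicle replicate 2 (0.0661). MIEN1 lost its call without OE19 vehicle replicate 2 (adjusted p = 0.0563 by rank aggregation).

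**Figure D3:**
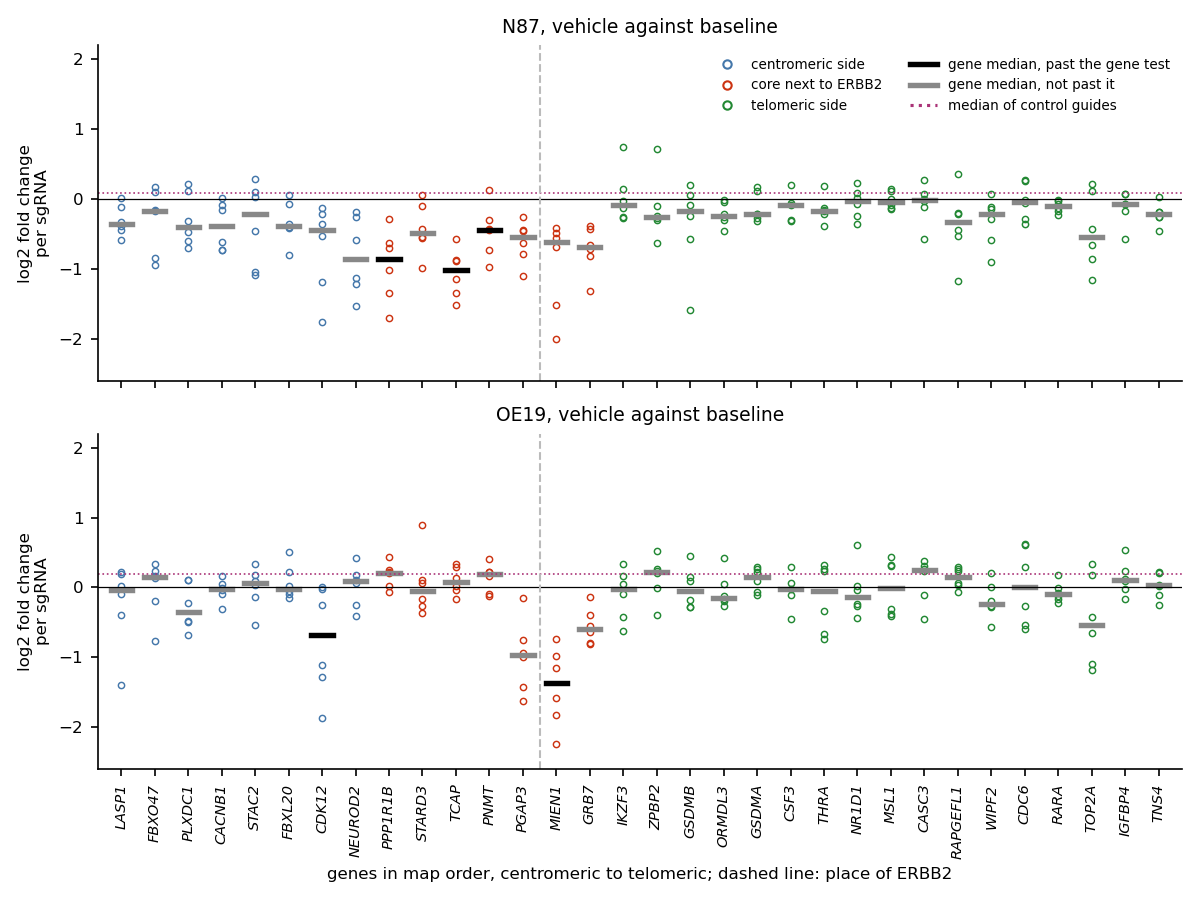
Log2 fold change of each sgRNA between vehicle and baseline libraries (y axis) for the 32 genes in map order (x axis), in N87 (top) and OE19 (bottom), drawn as for the baseline comparison. In N87 the gene medians sag over the whole core, down to -1.01 at TCAP, while in OE19 TCAP sits at 0.08 and the low values lie at PGAP3 (-0.96), MIEN1 (-1.37) and CDK12 (-0.68).

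Whether growth acted differently on these guides in the 2 lines was tested as the interaction of line and condition. The value of 3 neighbours, PPP1R1B, TCAP and PNMT, was higher in OE19 than in N87 (0.0383% of all genes were) and that of 0 was lower (0.191%). No single sgRNA of the neighbours passed in either direction (0% of all sgRNAs were higher and 0.00325% lower), and 3 were higher without OE19 vehicle replicate 2 (0.268%). PPP1R1B differed by 1.04 ± 0.55 and TCAP by 1.04 ± 0.43 on the log2 scale (SD over 6 sgRNAs, each adjusted p = 6.58e-05 by rank aggregation of the edgeR interaction test). These were the 2 highest differences of 20894 genes. PNMT differed by 0.68 ± 0.49 (adjusted p = 0.00936 by rank aggregation). NEUROD2 had a difference of 0.72 without passing (adjusted p = 0.391 by rank aggregation). MIEN1 at -0.45, PGAP3 at -0.31 and GRB7 at 0.03 did not pass, so their lower counts in OE19 were not shown to differ from those in N87. CDK12, called in OE19 alone, had a difference of -0.02. The interaction shares its libraries with the comparisons within each line and with the baseline comparison, and is not independent of them. The number of neighbours called was 0 without N87 baseline replicate 1 or OE19 vehicle replicate 2, and 1 without N87 vehicle replicate 2 or OE19 baseline replicate 2. It was 2 without N87 vehicle replicate 1 (PPP1R1B lost, adjusted p = 0.0638 by rank aggregation) or OE19 vehicle replicate 1 (PNMT lost, 0.129).

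The third comparison set lapatinib against vehicle, and asks whether a guide helped or harmed cells under HER2 inhibition. In N87 no neighbour passed the gene test in either direction (0.0144% of all genes were lower and 0% higher), although single sgRNAs moved widely. Of 179 sgRNAs tested, 58 were lower and 36 higher, against 29.9% and 31.2% of all sgRNAs, and 731 of 1999 control guides were higher and 314 lower. The share of lower guides was thus near the background. The number of lower sgRNAs, the number tested and the share of lower sgRNAs over the whole library all fell without either N87 vehicle library. The median over the neighbours was -0.68, where the median over the sgRNAs of all genes was -0.08 and that of the control guides 0.25. It was -0.35 without N87 vehicle replicate 1 and -0.36 without N87 lapatinib replicate 1. The lowest gene was PGAP3 at -2.42 ± 1.58 (5 sgRNAs tested), with 33.6 and 26.4 normalized counts under vehicle and 15.9 and 14.2 under lapatinib, without overlap. TNS4 at -1.90, CSF3 at -1.88 and MIEN1 at -1.88 followed. Not every MIEN1 guide had enough counts to be tested. The mean normalized counts of MIEN1 overlapped, at 35.4 and 17.9 under vehicle and 28.7 and 29.4 under lapatinib. For TNS4 the mean over guides went the other way, from 92.7 and 109 to 141 and 146, and a single TNS4 guide, HGLibA_59215, stood at 2.92. ORMDL3, at -1.47, was more even: its 6 guides lay between -2.50 and -0.61, 4 of them were lower, and its mean normalized count went from 114 and 91.1 to 30.9 and 48.8. The highest genes were STAC2 at 1.44 (131 and 127 to 420 and 354), STARD3 at 0.69, MSL1 at 0.52 and TOP2A at 0.35. The guides of STARD3 ran from -1.93 to 3.71. The median gene value was -1.35 over the core, -0.39 over the centromeric genes and -0.43 over the telomeric genes. Gene means were lower without overlap for 10 of 32 genes and higher for 15, where 17.1% and 70.5% of all genes were.

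In OE19 the only neighbour past the gene test was FBXL20, which rose (0.0957% of all genes did, and 0% fell). Its mean normalized counts were 202 and 186 under vehicle and 896 and 574 under lapatinib, with no overlap. The log2 fold change was 1.39 ± 1.15 over 6 sgRNAs, or 2.62-fold (adjusted p = 0.0144 by rank aggregation of the edgeR test). The guides did not act alike, since HGLibB_17978 and HGLibA_18001 stood at 2.90 and 2.61, HGLibA_17999 and HGLibB_17977 at 1.60 and 1.17, and HGLibB_17976 and HGLibA_18000 at 0.25 and 0.16. The first 4 of these passed the sgRNA test and the last 2 did not. In N87 it was the last 2 that were higher under lapatinib, HGLibB_17976 at 2.36 and HGLibA_18000 at 2.08, so that no guide for FBXL20 was higher in both lines. The FBXL20 call was lost without OE19 lapatinib replicate 1 (adjusted p = 0.148 by rank aggregation), OE19 lapatinib replicate 2 (0.108), OE19 vehicle replicate 1 (0.0880) or OE19 vehicle replicate 2 (0.0779).

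MIEN1 had the highest median of the neighbours in OE19 under lapatinib, at 1.52 ± 0.90 with 6 of 6 guides above 0, and did not pass (adjusted p = 0.916 by rank aggregation). From 79.8 and 78.2 at baseline, its mean normalized counts stood at 34.7 and 36.7 in the vehicle libraries and at 62.0 and 68.5 in the lapatinib libraries. The lapatinib libraries stood between the others without overlap. The vehicle libraries are shared by both comparisons, so a low vehicle value lowers one and raises the other. ERBB2 had 105 and 103 at baseline, 54.9 and 64.3 under vehicle and 150 and 109 under lapatinib. Its lapatinib libraries lay above both baseline libraries, as those of 42.7% of all genes did. Its median against baseline was 0.03, with 3 guides above 0 and 3 below. Against vehicle, ERBB2 had a value of 0.95 (adjusted p = 0.870 by rank aggregation). PLXDC1 was at 0.92 and CSF3 at 0.78, with its 5 tested guides between -0.88 and 4.04. The lowest neighbours were PPP1R1B at -0.23, ZPBP2 at -0.19, RAPGEFL1 at -0.12 and MSL1 at -0.02. Over all neighbours 5 of 191 sgRNAs were higher (2.33% of all sgRNAs were) and 0 lower (0.0795%). The number higher was 14 without OE19 lapatinib replicate 1 (4.39% of all sgRNAs), 28 without OE19 lapatinib replicate 2 (8.57%, with 4 lower against 3.72%) and 0 without either OE19 vehicle library (0.00751% and 0.0389% without replicates 1 and 2). The median was 0.25, where the sgRNAs of all genes had -0.02 and the control guides -0.14. Gene means were higher without overlap for 24 of 32 genes and lower for 1, where 36.3% and 19.3% of all genes were. With library totals in place of TMM scaling the median of the neighbours turned to -0.20, as that scaling moved the median of all sgRNAs to -0.46.

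**Figure D4:**
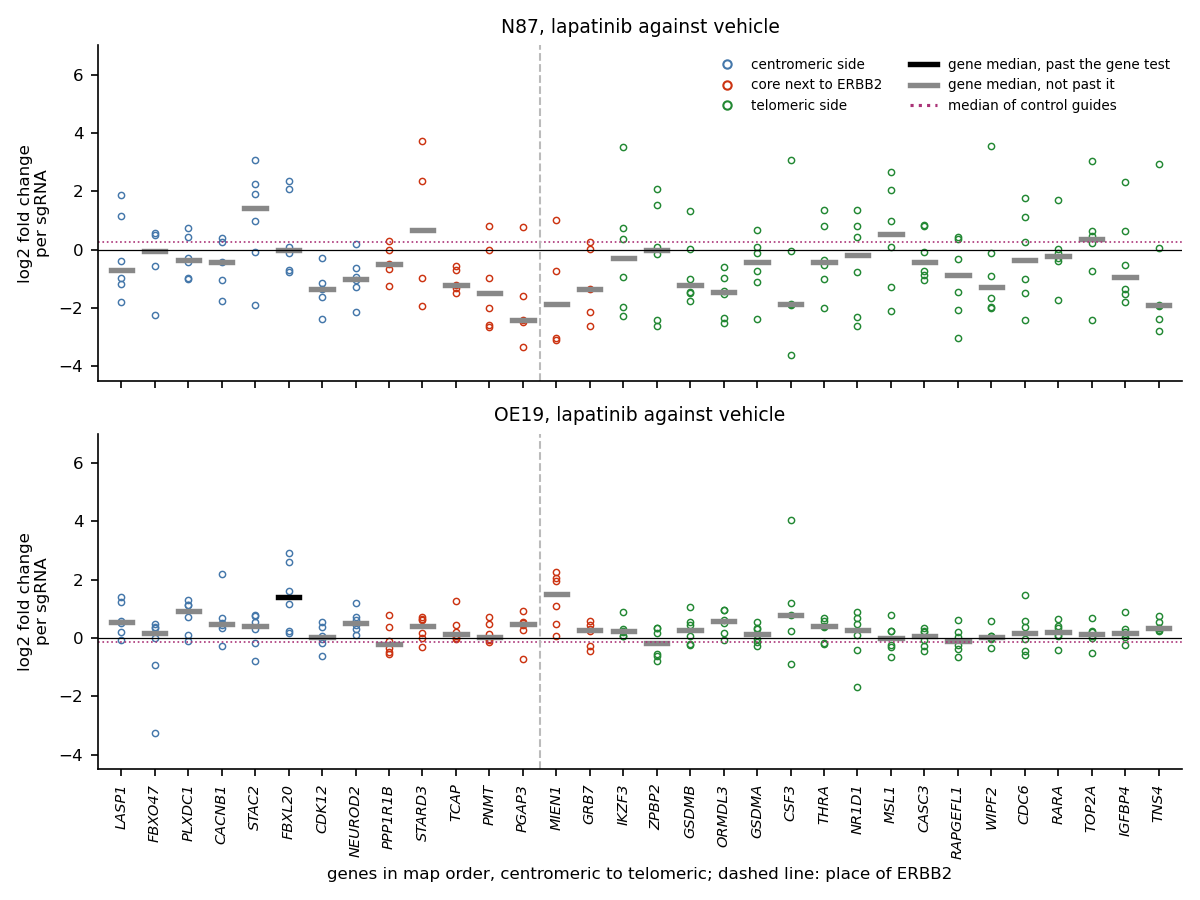
Log2 fold change of each sgRNA between lapatinib and vehicle libraries (y axis) for the 32 genes in map order (x axis), in N87 (top) and OE19 (bottom), drawn as for the baseline comparison. Guides of one gene scatter over several log2 units in N87, and FBXL20 (1.39) in OE19 is the only gene past the test.

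The lapatinib effect was compared between lines as an interaction, at doses that differed (0.5 µM in N87 and 1 µM in OE19), and 0 neighbours passed in either direction (0% and 0.0191% of all genes). Of 190 sgRNAs tested, 69 were higher in OE19 and 26 lower, against 20.7% and 20.5% of all sgRNAs. The higher count fell without N87 vehicle replicate 1 or OE19 vehicle replicate 1, and the share over all sgRNAs fell with it. MIEN1 at 3.35 and PGAP3 at 2.88 had the largest differences, with SDs over guides of 2.24 and 2.04. Against baseline, the lapatinib libraries of N87 had 101 of 192 sgRNAs lower and 34 higher (33.6% and 33.7% of all sgRNAs), and 0 genes past the test (0.134% lower, 0% higher). The number lower and the share over all sgRNAs both fell without either N87 baseline library. The median over the sgRNAs of the neighbours was -1.20, and it ranged from -1.40 to -0.96 with 1 library left out. MIEN1 at -3.08, PGAP3 at -2.90, GRB7 at -2.47 and TCAP at -2.22 were the lowest. Gene means were lower without overlap for 15 of 32 genes and higher for 13, where 18.5% and 71.8% of all genes were. All 6 TCAP guides passed as lower there, with mean normalized counts of 85.8 and 58.3 at baseline and 15.9 and 26.6 under lapatinib. In OE19, FBXL20 was again the single gene past the test at 1.33 ± 0.99 (adjusted p = 0.00681 by rank aggregation, 0.124% of all genes), and 0 genes were lower (0.12%). No sgRNA of the neighbours passed there (0.000817% of all sgRNAs were higher and 0% lower), a count that depended on the fit. With DESeq2, 27 of 191 were higher and 4 lower (5.92% and 1.57% of all sgRNAs), and with the replicate number as a block 13 were higher and 2 lower (4.5% and 1.09%). Without OE19 lapatinib replicate 1 the numbers were 51 and 14 (12% and 6.98%), and without OE19 lapatinib replicate 2 they were 59 and 25 (19.8% and 15.9%). That call was lost without OE19 baseline replicate 2 (adjusted p = 0.167 by rank aggregation), OE19 lapatinib replicate 1 (0.193) or OE19 lapatinib replicate 2 (0.169).

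**Figure D5:**
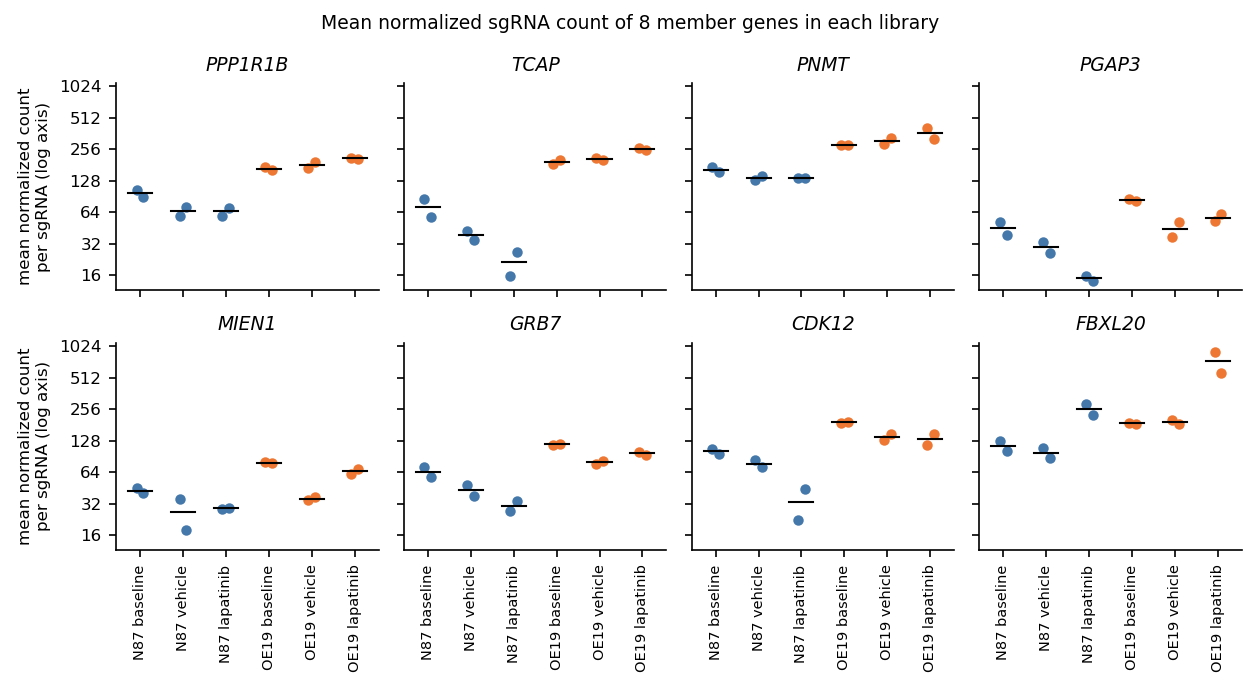
Mean normalized count per sgRNA of 8 of the neighbours in each of the 12 libraries (y axis, log scale) by line and condition (x axis). Points are libraries (blue N87, orange OE19) and lines their means. TCAP goes from 85.8 and 58.3 at N87 baseline to 15.9 and 26.6 under lapatinib while staying at 186 or more in OE19, MIEN1 dips with vehicle in OE19 (34.7 and 36.7), and FBXL20 stands apart in OE19 under lapatinib (896 and 574).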

How the data were processed

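The authors trimmed the reads, mapped them to the designed sgRNA library with Bowtie (Bowtie2 2.3.2 in the submitters' processing notes) at fewer than 2 mismatches, and deposited one table of raw read counts per sgRNA for 12 libraries, which was used here. FastQC 0.11.5 and MAGeCK 0.5.6 are also named there. Sequences and positions of the sgRNAs were not used here. A genome build for the guides is not given in the sources used here, and gene positions come from GENCODE version 44 on GRCh37, which placed 95.5% of the targets.

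Each comparison used only its own libraries. sgRNAs with at least 40 counts over 4 libraries, or 80 over 8 for an interaction, were tested with edgeR 4.0.16 (quasi-likelihood test, TMM scaling, prior count 0.125, R 4.3.3), and Benjamini-Hochberg adjustment ran over all sgRNAs. Per gene, the ranks of the p-values in each direction were combined by robust rank aggregation (ranks below 0.05, at least 2 tested sgRNAs), adjusted over all genes. A gene's value is the median over its sgRNAs on the log2 scale, and the SD is over sgRNAs. Between-library error enters through the edgeR test. Normalized counts are counts divided by median-of-ratios size factors over 12 libraries, and the gene means are over sgRNAs. MAGeCK was not run here. The steps were tested on simulated data: of 50 genes changed at each of 4 fold sizes in either line's vehicle comparison, 100% were found, with 4 (N87) and 3 (OE19) unchanged genes called. All sgRNAs of a changed gene were given the same fold (0.25, 0.5, 2 or 4). The 100% therefore does not cover smaller changes, genes whose guides differ, or the lapatinib comparisons.

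The 2 replicates of a group are separate infections, so the sgRNA p-values measure the spread between infections of the same line. The gene p-values measure how far the sgRNAs of a gene rank together among all sgRNAs, and treat those sgRNAs as independent. They do not themselves measure the spread between infections. The replicate number was not used as a block, because same-numbered libraries did not deviate together in every comparison (correlations of 0.0323 to 0.238 between conditions of a line, and -0.0361 between lines at baseline). Median counts of 57 to 238 per library set only the sampling part of the precision per sgRNA. Replicate libraries differed beyond it, with chi-square values of 1.87 to 17.1 per degree of freedom. PCR reads carry no molecular identifiers, so counts are not independent molecules. Alternatives were library totals, scaling on the control guides, no filter, DESeq2 1.42.0, the replicate block, a prior count of 2 and leaving out each library. The 32 genes and the gene lists were chosen with earlier results of these data known. All 32 genes are accounted for, and named with values were those past the gene test in any comparison and the 4 lowest and 4 highest in each vehicle and lapatinib comparison. ORMDL3 under lapatinib in N87 and the single guides named were chosen after their values were seen. Figures were drawn with matplotlib 3.10.9.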

Additional observations from a re-analysis of the deposited data

Results flagged for a closer look

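The change over 14 days without drug differed between the lines, by the interaction test of line and condition, for 3 of the 32 neighbours, all in the core before ERBB2. PPP1R1B had a difference of 1.04 on the log2 scale, with 6 of 6 guides higher in OE19 than in N87. TCAP had a difference of 1.04, also with 6 of 6 guides higher. PNMT had a difference of 0.68, with 5 of 6 guides higher. In each of these the N87 value was below 0 (-0.85, -1.01 and -0.44) and the OE19 value above it (0.21, 0.08 and 0.19). The N87 baseline counts of the same genes were lower than those of OE19 (for TCAP 85.8 and 58.3 against 186 and 202), and the part of this lower starting level in the difference was not tested.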

How the results depend on the processing

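Of 36 calls of single neighbours, each refitted under the alternatives (372 refits in all), 321 refits kept the call, 51 lost it and 0 reversed it. With 2 libraries a group, leaving out 1 library was the harshest of these. It moved the number of neighbours lower in N87 growth from 3 to between 0 and 6, in OE19 growth from 2 to between 1 and 3, higher in OE19 at baseline from 26 to between 20 and 24 (sgRNAs from 87 to between 58 and 101), and higher in the growth interaction from 3 to between 0 and 4. FBXL20 was the 1 gene called under lapatinib in OE19, where the count without a library was 0 to 0 against vehicle and 0 to 1 against baseline. The sgRNAs lower under lapatinib in N87 ranged from 22 to 81 against vehicle and from 35 to 116 against baseline, and those higher in the lapatinib interaction from 39 to 80.

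The median over the sgRNAs of the neighbours, without 1 library, ranged from -0.41 to -0.16 in N87 growth, from -0.06 to -0.02 in OE19 growth, from 0.51 to 0.74 at baseline, from 0.11 to 0.34 in the growth interaction, from -0.82 to -0.35 for lapatinib in N87, from -1.40 to -0.96 against baseline there, from 0.20 to 0.32 for lapatinib in OE19, from 0.83 to 1.37 in the lapatinib interaction and from 0.14 to 0.21 for OE19 lapatinib against baseline. Scaling moved these medians together with that of all sgRNAs. With library totals they were -0.27 in N87 growth and -1.72 for N87 lapatinib against baseline. Lapatinib against vehicle in N87 stood at -1.19, with 90 of 179 sgRNAs lower (44.9% of all sgRNAs). The medians turned to -0.20 for lapatinib in OE19 and -0.30 against baseline, where the FBXL20 count was 0. Relative to all sgRNAs, the neighbours stood 0.27 higher under lapatinib in OE19 with TMM scaling and 0.26 higher with totals. With control-guide scaling the medians were -0.35 in N87 growth, -0.21 in OE19 growth, 0.10 in the growth interaction, 0.37 for lapatinib in OE19, 1.46 in the lapatinib interaction, -1.56 for N87 lapatinib against baseline and 0.11 for OE19. DESeq2 gave 43 sgRNAs higher at baseline (0.24% of all sgRNAs), and medians of -0.27 in N87 growth and 0.27 for lapatinib in OE19. With the replicate block 16 sgRNAs were lower in N87 growth against 0 (2.16% of all sgRNAs against 0.0399%). In OE19 growth 12 were lower against 4 (3.09% of all sgRNAs against 0.893%). The block gave a median of 0.28 for lapatinib in OE19. Of the calls of single neighbours it lost only PNMT in N87 growth (adjusted p = 0.0550 by rank aggregation). Control-guide scaling lost PNMT there (0.0541) and IKZF3 at baseline (0.0511). The causes of these changes were not tested. In the N87 lapatinib libraries 64 and 34 of the 192 sgRNAs had under 10 counts, against 12 and 3 in the shallower OE19 lapatinib libraries, so counting error is widest for single guides in N87 under lapatinib.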
